A study of Mus musculus with 6 samples.

Results

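A set of 7 genes of GABA synthesis, transport and GABA-B reception was followed in the basolateral amygdala of mice. They were chosen by symbol and are Gad1, Gad2, Slc32a1, Slc6a11, Abat, Gabbr1 and Gabbr2. All 7 were found among the 26264 symbols counted in each library, and all 7 were among the 14739 genes with enough counts to be tested. The study compared 3 male mice kept under chronic restraint stress (CRS), repeated immobilisation of the animal, with 3 male mice that were not stressed (Ctrl). Each mouse gave 1 library of total RNA depleted of ribosomal RNA, made with a stranded kit, and the design text names the animals of a group as biological replicates. The labels used here give no strain, age or restraint schedule. In bulk tissue, fewer cells of a type and less RNA per cell cannot be told apart, and this applies to every difference described here.

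GABA is the main inhibitory transmitter of the forebrain. It is made from glutamate by 2 glutamate decarboxylases, GAD67 from Gad1 and GAD65 from Gad2, and is loaded into vesicles by the transporter VGAT from Slc32a1. After release it is taken up by neurons and astrocytes, the astrocytic transporter GAT-3 being the product of Slc6a11, and it is broken down by GABA transaminase, the product of Abat. Part of its slow action runs through the GABA-B receptor, a G protein-coupled receptor that works as a pair of the Gabbr1 and Gabbr2 proteins. In the basolateral amygdala GABA comes from local interneurons that hold the glutamatergic projection neurons in check, and from the intercalated cell clusters at its border. The neighbouring central amygdala and striatum consist mainly of GABA neurons.

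The libraries were of even depth, and markers of neighbouring tissue differed widely between them. Counts in genes ranged from 9859449 to 10179081 in CRS and from 9870139 to 10233706 in Ctrl. The tissue label was checked against glutamatergic neuron genes: Slc17a7, the vesicular glutamate transporter of cortical-type projection neurons, averaged 1089 ± 107 CPM in CRS and 913 ± 184 CPM in Ctrl (SD, n = 3 each), where CPM scales counts to a common library size corrected by TMM. None of the 13 glutamatergic genes on the list was at 0 in any library. Markers of striatum and central amygdala were present as well, with 19 genes summing to between 323 and 1165 CPM in CRS and between 1059 and 2132 CPM in Ctrl, and their level was lowest in CRS 1 and highest in Ctrl 1 for all 19. Isl1, a transcription factor of striatal projection neurons, was the only one of the 19 at 0 in a library, CRS 1. Choroid plexus and ependymal markers, which come from the ventricle lining, summed to between 20.8 and 6171 CPM in CRS and between 51.1 and 4324 CPM in Ctrl.

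Set against exon length, the receptor gene Gabbr1 stood above the other members, and Slc32a1 was the lowest in every library. Levels between genes were compared as CPM per kilobase of merged exon in the GENCODE M21 annotation, which is on another genome build than the counts and gives lengths only approximately. Gabbr1 was at 96.9 ± 2.72 CPM per kilobase in CRS and 97.2 ± 2.69 in Ctrl (SD, n = 3 each), above every other member in every library. Gabbr2 followed at 60.8 ± 3.43 in CRS and 57.4 ± 12.3 in Ctrl. Gad2 was at 37.4 ± 7.90 in CRS and 54.6 ± 14.4 in Ctrl, Abat at 38.3 ± 2.22 in CRS and 45.2 ± 5.59 in Ctrl, and Gad1 at 37.3 ± 3.17 in CRS and 43.9 ± 8.46 in Ctrl. Gabbr2 lay above Gad2, Abat and Gad1 in every library but Ctrl 1, where it was the lowest of these. The order of Gad2, Abat and Gad1 differed between libraries and is not resolved. Slc6a11 lay apart from Gad1, at 20.8 ± 2.64 in CRS and 21.1 ± 2.40 in Ctrl. Slc32a1 was at 10.2 ± 2.79 in CRS and 15.6 ± 4.39 in Ctrl. Within every library Slc32a1 was below Slc6a11, although the ranges of both genes over the 6 libraries overlapped.

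**Figure D1:**
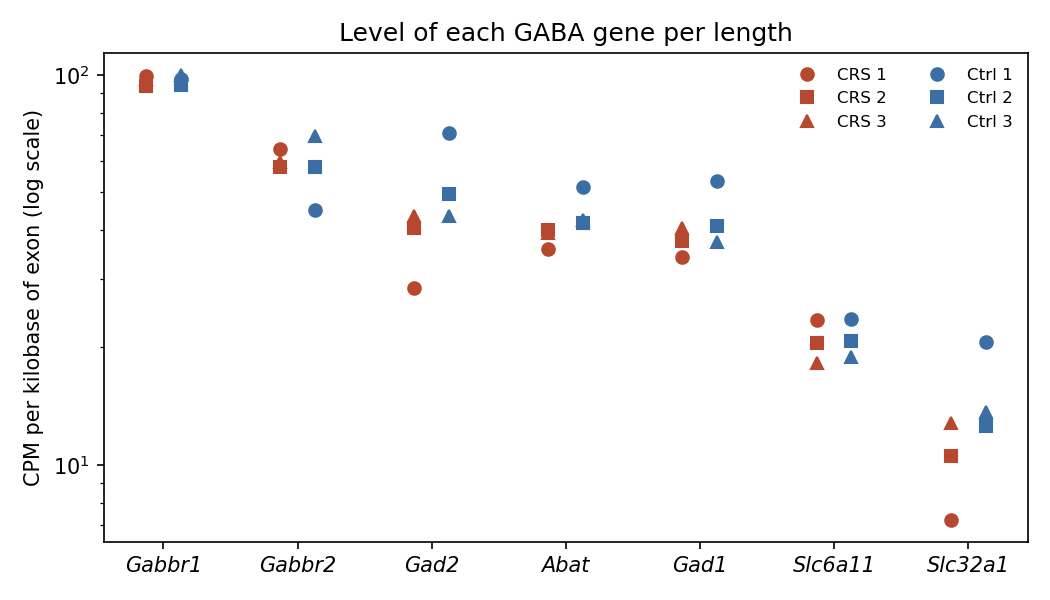
CPM per kilobase of merged exon on a log scale for the 7 genes, ordered by the Ctrl mean, with 1 point per library (CRS left, Ctrl right of each pair, symbol shape by replicate number). Gabbr1 stands near 97 in all 6 libraries, and the largest spread between libraries is that of Slc32a1 and Gad2.

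The comparison asks which of these genes differ between stressed and unstressed amygdala. No member passed the test across all genes, and the 4 genes that make, load or break down GABA were on average lower in CRS. By edgeR's quasi-likelihood test with Benjamini-Hochberg adjustment over all genes, 0 of the 7 members were called at 0.05, beside 0 of all 14739 tested genes (0%). DESeq2, edgeR's likelihood ratio test and limma-voom called 2, 4 and 0 genes, of which 0 were members and 0 were on the other lists described here. At an unadjusted p under 0.05 there was 1 of the 7, Abat, against 3.37% of all tested genes. The log2 fold change (CRS minus Ctrl) was below 0 for 6 of the 7, against 51.6% of all tested genes. Among the 6, Gabbr1 at -0.0044 and Slc6a11 at -0.02 changed sign in some fits with 1 library left out. The median of the 7 was -0.23, against a median of -0.0044 over all tested genes. The groups did not overlap in CPM for 2 of the 7, Gad2 and Abat, both lower in CRS, where 4.48% of all tested genes were separate and lower in CRS and 8.28% were separate in either direction.

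Gad1 and Gad2 were both read deeply, with between 1628 counts (Gad2 in CRS 1) and 4190 counts (Gad2 in Ctrl 1) per library. Gad1 was at 260, 286 and 308 CPM in CRS 1 to 3, against 408, 314 and 284 CPM in Ctrl 1 to 3. The highest library was Ctrl 1 and the lowest CRS 1, and the groups overlapped because CRS 2 and CRS 3 lay above Ctrl 3. Gad1 averaged 285 ± 24.2 CPM in CRS and 335 ± 64.6 CPM in Ctrl (SD, n = 3 each), which gives a log2 fold change of -0.23 ± 0.14 (SE) with a 95% interval from -0.56 to 0.09 (edgeR adjusted p = 0.997).

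Gad2 spread more widely than Gad1. It was at 167, 237 and 254.9 CPM in CRS 1 to 3, against 416, 291 and 255.5 CPM in Ctrl 1 to 3. Every CRS library was below every Ctrl library on this scale, but CRS 3 and Ctrl 3 were next to each other, and as unscaled counts they stood the other way round, at 2566 in CRS 3 and 2500 in Ctrl 3. Gad2 averaged 220 ± 46.4 CPM in CRS and 321 ± 84.6 CPM in Ctrl (SD, n = 3 each), which gives a log2 fold change of -0.55 ± 0.24 (SE) with a 95% interval from -1.12 to 0.03 (edgeR adjusted p = 0.997). The interval runs from a fold of 0.459 to a fold of 1.02.

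Slc32a1, the vesicular GABA transporter gene, was the member with the fewest reads and the largest fold change. It had 197, 293 and 360 counts in CRS 1 to 3, against 581, 362 and 374 counts in Ctrl 1 to 3, where counting alone gives 197 a 95% Poisson interval from 170 to 227. As CPM these were 20.2, 29.5 and 35.8 in CRS, against 57.7, 35.1 and 38.2 in Ctrl. CRS 1 was lowest and Ctrl 1 highest, as for both Gad genes, and CRS 3 lay above Ctrl 2, so the groups overlapped. The log2 fold change was -0.62 ± 0.27 (SE), with a 95% interval from -1.27 to 0.04 (edgeR adjusted p = 0.997). In GENCODE M21, 24.9% of the exon bases of Slc32a1 lie opposite exons of Gm14205 on the other strand. The strand setting of the counting is not given in the sources used here. How reads over that stretch were assigned, or whether they were left out, is therefore not known.

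**Figure D2:**
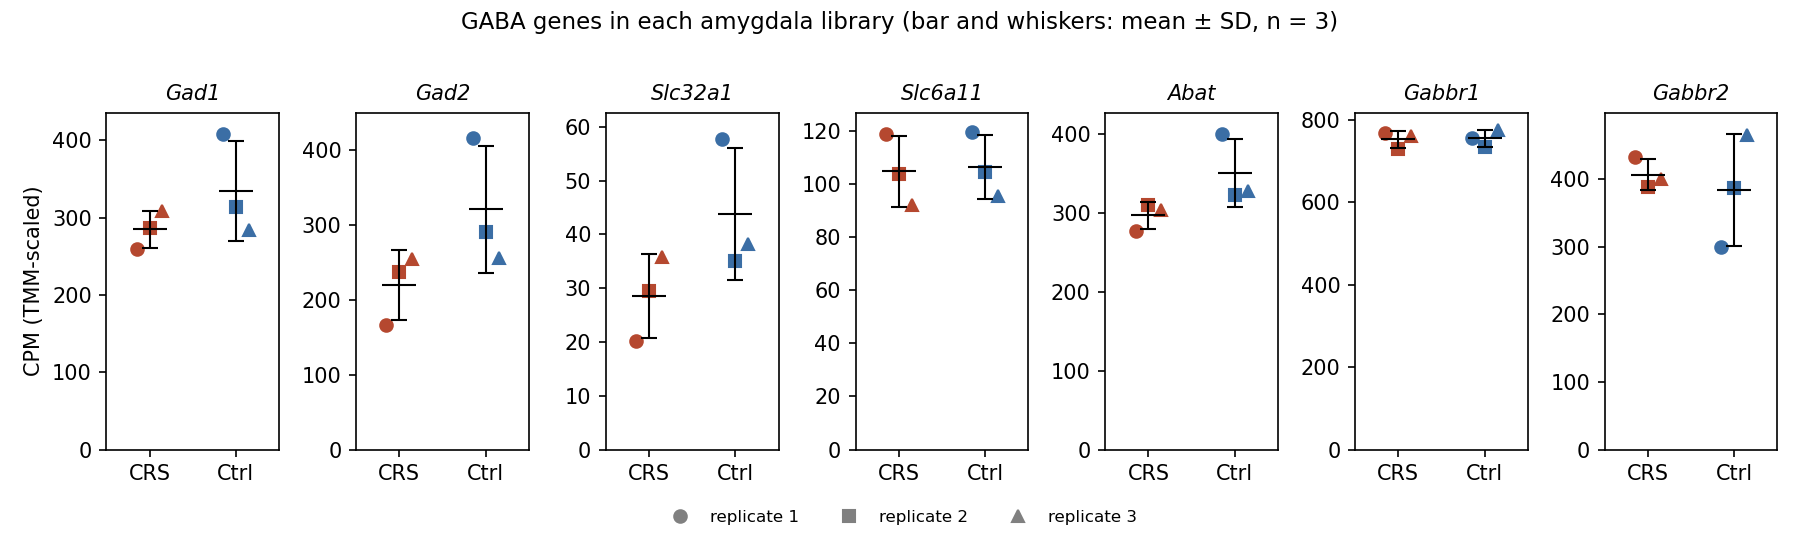
CPM of each of the 7 genes (each panel with its own linear axis from 0), CRS left and Ctrl right, with 1 symbol per library by replicate number and a bar and whiskers for the mean ± SD of 3 libraries. For Gad1, Gad2, Slc32a1 and Abat the lowest point is CRS 1 and the highest Ctrl 1, while Gabbr1 is level across all 6 libraries.

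The promoters of the 3 genes that mark a GABA neuron are shown because all 3 were lowest in CRS 1 and highest in Ctrl 1. The sequences are those of RefSeq on GRCm38.p6, the 250 bases before the annotated start, matched by symbol, for 6 of the 7 members. The 3 printed here are from genes on the plus strand. All 3 genes lie on chromosome 2, with Gad2 and Gad1 47.9 megabases apart and Gad1 and Slc32a1 88.0 megabases apart. The windows are chr2:22622077-22622326 for Gad2, chr2:70561879-70562128 for Gad1 and chr2:158610508-158610757 for Slc32a1. Capitals mark matches to a TATA box or a GC box.
Gad1: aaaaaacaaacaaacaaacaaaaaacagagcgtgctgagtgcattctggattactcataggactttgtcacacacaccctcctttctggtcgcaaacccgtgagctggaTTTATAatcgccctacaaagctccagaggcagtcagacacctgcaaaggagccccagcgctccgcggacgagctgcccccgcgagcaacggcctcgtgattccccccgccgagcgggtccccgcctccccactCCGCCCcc
Gad2: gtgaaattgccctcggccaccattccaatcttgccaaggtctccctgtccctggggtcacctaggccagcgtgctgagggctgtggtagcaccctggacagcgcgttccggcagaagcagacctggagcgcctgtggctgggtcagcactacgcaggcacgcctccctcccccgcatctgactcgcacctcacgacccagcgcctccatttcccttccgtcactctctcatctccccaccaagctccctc
Slc32a1: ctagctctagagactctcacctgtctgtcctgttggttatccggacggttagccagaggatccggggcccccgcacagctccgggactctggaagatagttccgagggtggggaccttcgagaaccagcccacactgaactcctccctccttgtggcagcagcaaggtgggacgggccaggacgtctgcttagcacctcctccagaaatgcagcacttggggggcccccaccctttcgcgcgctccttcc
Each window was searched on both strands for 4 motifs, and no match of one overlapped a match of another: the GC box GGGCGG, the TATA box TATAAA, the glucocorticoid receptor half-site TGTTCT and the homeodomain core TAATTA. Gad1 held 1 GC box 8 bases before the start and 1 TATA box 141 bases before it, both on the minus strand. Gad2 and Slc32a1 held neither. Gabbr1 and Gabbr2 held 2 GC boxes each and Slc6a11 held 3, so that 4 of the 6 members had at least 1, against 32.7% of 32851 promoter windows of the same length. A TATA box occurred in 12.4% of the windows. The receptor half-site occurred in 16.1% of all windows and in 0 of the 6, and the homeodomain core in 4.84% and in 0 of the 6, which says only that these letters are not in these windows.

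Within libraries, Gad2 counts were lower relative to Gad1 counts in all 3 CRS libraries. A ratio of 2 genes in the same library does not depend on how libraries are scaled. The Gad1 to Gad2 count ratio was 1.56, 1.21 and 1.21 in CRS 1 to 3, against 0.979, 1.08 and 1.11 in Ctrl 1 to 3. The groups did not overlap, with the difference in mean log2 ratio at 0.32 (0.39 ± 0.21 in CRS and 0.08 ± 0.10 in Ctrl, SD, n = 3 each; two-sided exact permutation p = 0.1). This is the smallest p that 3 against 3 allows, so the design cannot reach 0.05. The difference was 0.20 without CRS 1 and 0.26 without Ctrl 1. Over the 4 ratios examined the Benjamini-Hochberg adjusted value was 0.2.

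The ratio of the vesicular GABA transporter gene to the glutamate transporter gene Slc17a7 was lower in CRS, and both genes entered this difference. The Slc32a1 to Slc17a7 count ratio was 0.0171, 0.0303 and 0.0322 in CRS 1 to 3, against 0.0803, 0.0376 and 0.0352 in Ctrl 1 to 3. The groups did not overlap, and CRS 1 and Ctrl 1 lay at opposite ends while the other 4 libraries lay between 0.0303 and 0.0376. The difference in mean log2 ratio was -0.89 (two-sided exact permutation p = 0.1, adjusted 0.2). Slc17a7 itself was highest in CRS 1 (1184 CPM) and lowest in Ctrl 1 (719 CPM), with a log2 fold change of 0.25 ± 0.15 (SE). For Slc32a1 alone the groups overlapped. The difference was -0.60 without CRS 1 and -0.51 without Ctrl 1.

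**Figure D3:**
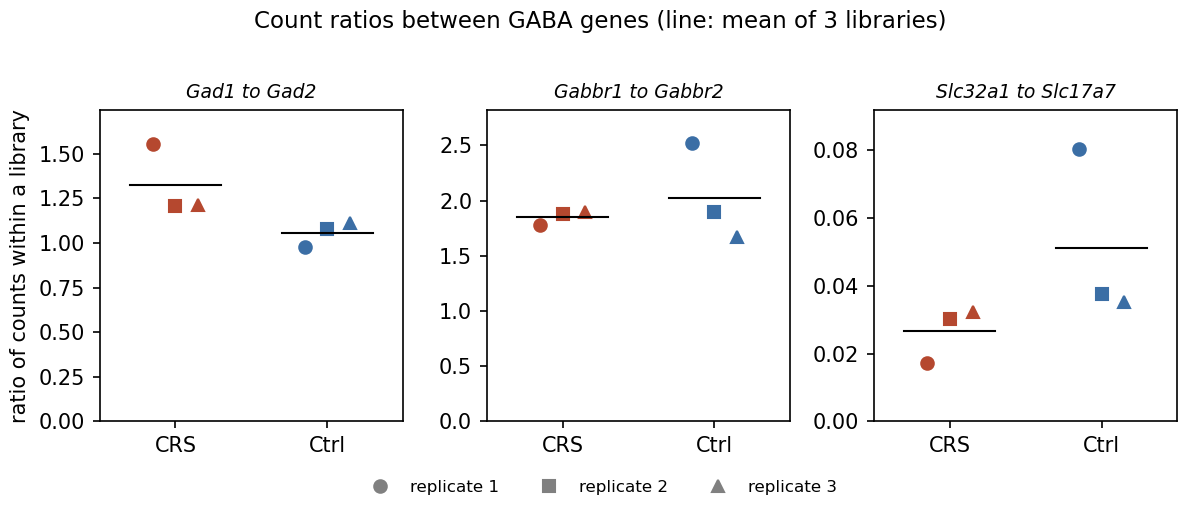
Ratio of 2 genes' counts within each library for 3 pairs (linear axes from 0), CRS left and Ctrl right, with 1 symbol per library by replicate number and a line at the mean of 3. The groups are apart for Gad1 to Gad2 and for Slc32a1 to Slc17a7, and they overlap for Gabbr1 to Gabbr2.

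The astrocytic uptake gene showed no difference beyond the spread between libraries. Slc6a11 was at 119, 104 and 92.2 CPM in CRS 1 to 3, against 120, 105 and 95.6 CPM in Ctrl 1 to 3. The groups covered nearly the same range, and CRS 1 and Ctrl 1 were the upper 2 libraries. The log2 fold change was -0.02 ± 0.11 (SE), with a 95% interval from -0.29 to 0.24 (edgeR adjusted p = 0.997).

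Abat, the gene of GABA transaminase, was the member with the smallest unadjusted p. It was at 277, 309 and 304 CPM in CRS 1 to 3, against 400, 323 and 328 CPM in Ctrl 1 to 3. All CRS libraries lay below all Ctrl libraries, with CRS 2 and Ctrl 2 close to each other and Ctrl 1 well above the rest. The log2 fold change was -0.24 ± 0.10 (SE), with a 95% interval from -0.46 to -0.02 (unadjusted p = 0.0368, adjusted p = 0.997, edgeR).

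The GABA-B receptor genes showed no shared shift. Gabbr1 was at 769, 728 and 759 CPM in CRS 1 to 3, against 756, 733 and 774 CPM in Ctrl 1 to 3. The 6 values span 0.09 on the log2 scale, and the SD within groups was 0.04, against a median of 0.11 over 10247 genes with a mean of at least 10 CPM. The log2 fold change was -0.0044 ± 0.06 (SE), with a 95% interval from -0.15 to 0.14 (edgeR adjusted p = 0.999). Gabbr2 was at 432, 388 and 399 CPM in CRS 1 to 3, against 300.2, 387 and 464 CPM in Ctrl 1 to 3. All CRS values of Gabbr2 lay inside the range of the Ctrl values, and Ctrl 1, the highest library for the GABA-producing genes, was the lowest here. The log2 fold change was 0.08 ± 0.15 (SE), with an interval from -0.27 to 0.44 (edgeR adjusted p = 0.997). The Gabbr1 to Gabbr2 count ratio was 1.78, 1.88 and 1.90 in CRS 1 to 3, against 2.52, 1.89 and 1.67 in Ctrl 1 to 3 (difference in mean log2 ratio -0.11, two-sided exact permutation p = 0.8, adjusted 0.8).

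The spread within groups divided the members further. On the log2 scale the SD within groups was 0.40 for Slc32a1, 0.35 for Gad2, 0.23 for Gabbr2, 0.21 for Gad1, 0.17 for Slc6a11, 0.14 for Abat and 0.04 for Gabbr1, beside that median of 0.11. For Slc32a1 it exceeded that of 96.4% of these genes.

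For the genes that make and load GABA, as for markers of striatum and central amygdala, CRS 1 was the lowest and Ctrl 1 the highest library. Relative to the Ctrl mean on the log2 scale, Gad1 was at -0.35, -0.21 and -0.10 in CRS 1 to 3 and at 0.30, -0.08 and -0.22 in Ctrl 1 to 3. Gad2 was at -0.91, -0.40 and -0.30 in CRS 1 to 3 and at 0.41, -0.11 and -0.30 in Ctrl 1 to 3. Slc32a1 was at -1.07, -0.53 and -0.25 in CRS 1 to 3 and at 0.44, -0.28 and -0.16 in Ctrl 1 to 3. The mean level of the 19 striatal and central amygdala markers was at -2.75, -0.47 and -0.48 in CRS 1 to 3 and at 0.57, -0.40 and -0.17 in Ctrl 1 to 3. The other 4 libraries did not share 1 order: Ctrl 3 was above Ctrl 2 for this list and for Slc32a1, and below it for Gad1 and Gad2. Among the 19 striatal and central amygdala markers, Ido1 was at -1.52 ± 0.50, the tachykinin gene Tac1 at -0.79 ± 0.40 and Isl1 at -1.70 ± 0.88 (log2 fold change ± SE), and the median over the list was -0.96. This median was -0.51 without CRS 1, -0.55 without Ctrl 1 and -0.16 without both. None of the 19 passed the test (0 called over all genes, 1 at an unadjusted p under 0.05, edgeR). The same 2 libraries were at the ends for oligodendrocyte markers, whose mean level was at -0.61, -0.09 and -0.42 in CRS 1 to 3 and at 0.41, -0.13 and -0.28 in Ctrl 1 to 3.

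CRS 1 and Ctrl 1 are the lowest and the highest library for Gad1, Gad2, Slc32a1 and Abat, so a fit without them gives a smaller difference by construction, whatever its source. The log2 fold change of Gad2 was -0.38 ± 0.22 without CRS 1, -0.31 ± 0.19 without Ctrl 1 and -0.15 ± 0.10 (SE) without both. That of Slc32a1 was -0.42 ± 0.24 without CRS 1, -0.36 ± 0.23 without Ctrl 1 and -0.17 ± 0.13 without both. Gad1 was at -0.17 ± 0.16 without CRS 1, at -0.07 ± 0.10 without Ctrl 1 and at -0.0069 ± 0.09 without both, and Abat at -0.19 ± 0.10, -0.13 ± 0.08 and -0.09 ± 0.08 in the same order. With the striatal and central amygdala level as a covariate the values were -0.06 ± 0.14 for Gad1, -0.18 ± 0.16 for Gad2, -0.18 ± 0.17 for Slc32a1 and -0.11 ± 0.10 for Abat. The covariate itself was lowest in CRS 1 and highest in Ctrl 1. For genes with the same ends it takes up part of the group difference by construction, whatever its source. Gabbr2 turned below 0 without Ctrl 1 (-0.06 ± 0.10), without both libraries (-0.11 ± 0.11) and with the covariate (-0.05 ± 0.17).

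**Figure D4:**
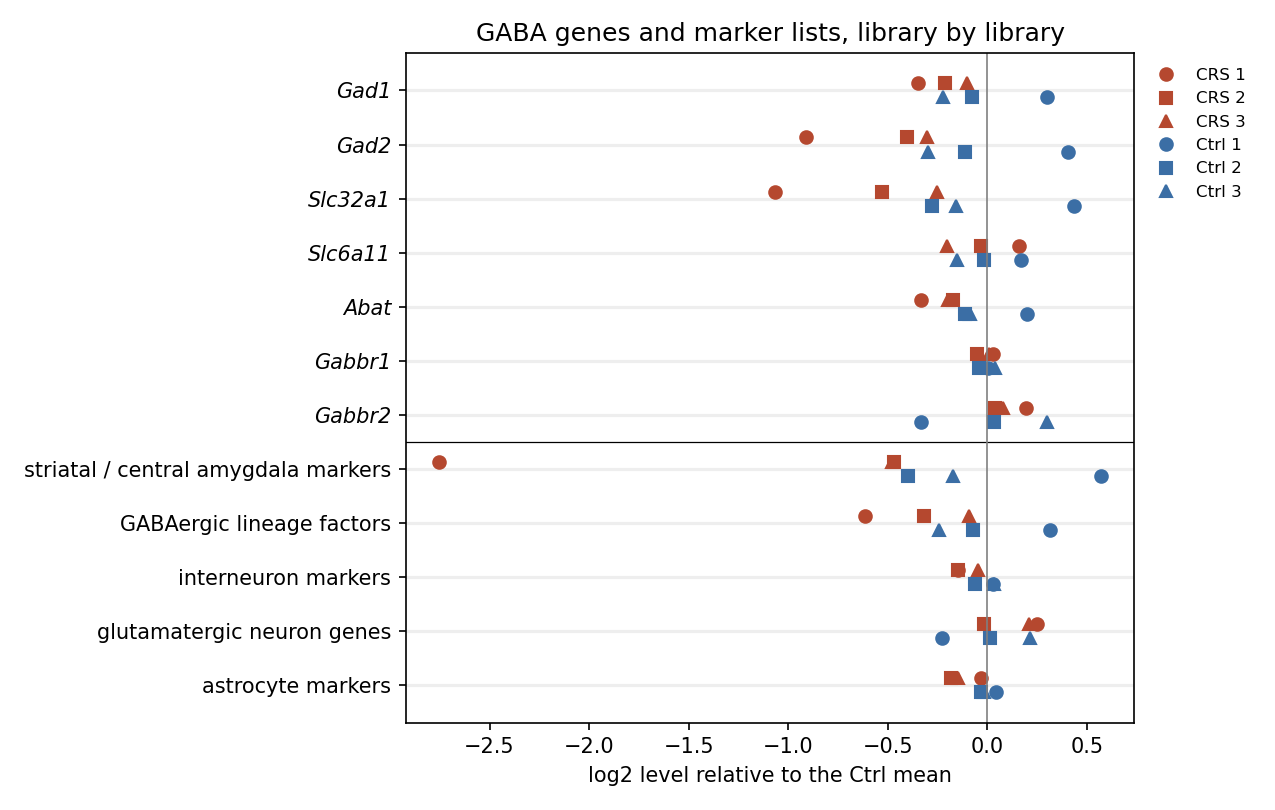
Log2 level of each library relative to the Ctrl mean (x axis) for the 7 genes above the line and for the mean of 5 marker lists below it, CRS in red above Ctrl in blue, symbol shape by replicate number. CRS 1 is the leftmost and Ctrl 1 the rightmost point for Gad1, Gad2, Slc32a1, Abat, the GABAergic lineage factors and the striatal and central amygdala markers. The striatal and central amygdala markers reach -2.75 in CRS 1.

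**Figure D5:**
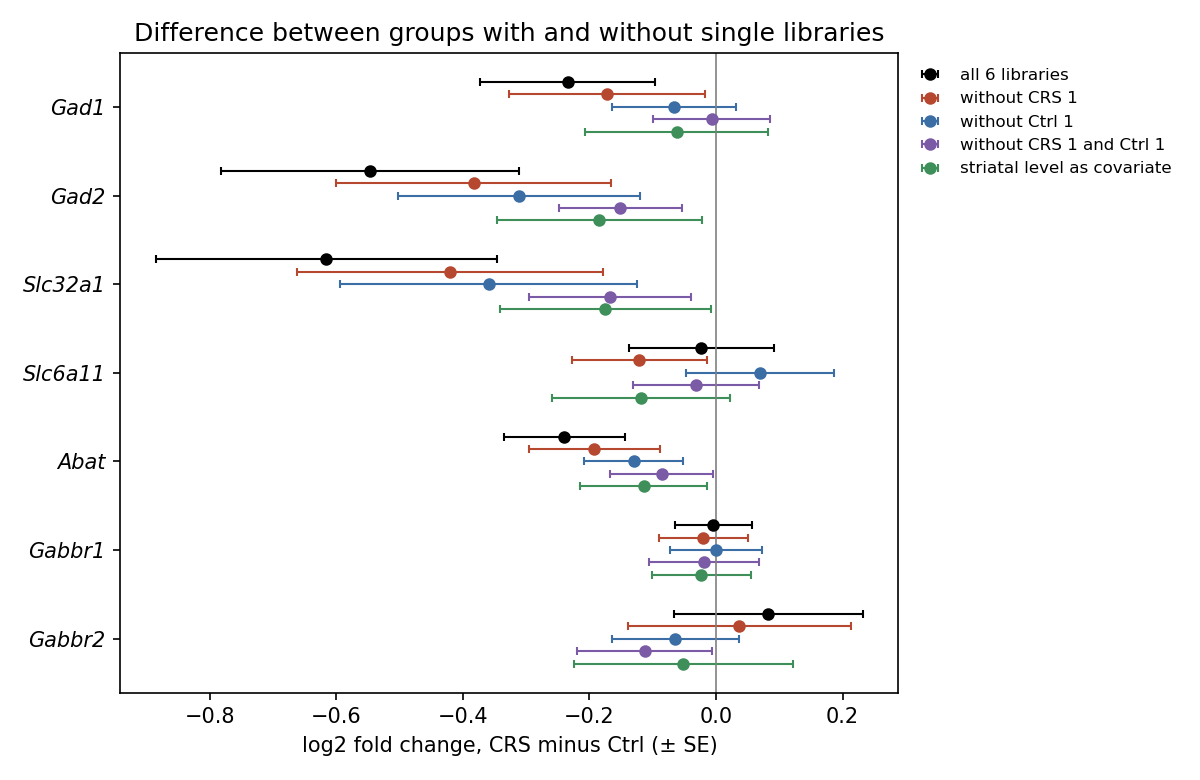
Log2 fold change, CRS minus Ctrl, with its SE for each of the 7 genes in the fit to all 6 libraries, in fits without CRS 1, without Ctrl 1 and without both, and with the striatal and central amygdala level as a covariate. Gad2 lies at -0.55 with all libraries and at -0.15 without both, which leaves out the lowest and the highest library for this gene, and Gabbr1 stays near 0.

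Other markers of inhibitory neurons varied less than the striatal list. Of 16 markers of cortical-type interneurons, 6 were higher and 10 lower in CRS, a median of -0.05 (log2 fold change; -0.09 to -0.02 with 1 library left out) and none past the test (1 at an unadjusted p under 0.05, edgeR). The 3 with the smallest p were the tachykinin gene Tac2 at -0.67 ± 0.23, the transcription factor gene Prox1 at -0.31 ± 0.14 and the peptide gene Crh at -0.79 ± 0.41 (log2 fold change ± SE). Tac2 and Crh were at low levels, with means of 5.74 and 2.41 CPM in CRS against 9.17 and 4.18 CPM in Ctrl. The summed level of the 16 was between 937 and 1196 CPM in CRS and between 951 and 1056 CPM in Ctrl, and none was at 0 in any library. Of 13 tested transcription factors of GABAergic lineage and intercalated cells, 3 were higher and 10 lower, with a median of -0.31 (-0.10 without Ctrl 1 and -0.07 without CRS 1 and Ctrl 1) and none past the test (1 at an unadjusted p under 0.05, edgeR). Dlx5 was at -0.53 ± 0.22 and Dlx6 at -0.77 ± 0.37, both homeobox genes of forebrain GABA neurons. The mean level of the 13 factors was at -0.61, -0.32 and -0.09 in CRS 1 to 3 and at 0.31, -0.07 and -0.24 in Ctrl 1 to 3, and Gata3 was at 0 in 5 of the 6 libraries. The part of cell makeup in the differences of the GABA genes was not tested.

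Among genes of other cell types, the 13 glutamatergic ones had log2 fold changes above 0. Their median was 0.14, with 0 past the test (0 at an unadjusted p under 0.05, edgeR), among them Slc17a7 at 0.25 ± 0.15, Nrn1 at 0.29 ± 0.20 and Fezf2 at 0.61 ± 0.46. Their mean level was at 0.25, -0.02 and 0.21 in CRS 1 to 3 and at -0.23, 0.01 and 0.22 in Ctrl 1 to 3, so that Ctrl 1 was the lowest and the groups overlapped. CRS 1 was the highest, so leaving out CRS 1 or Ctrl 1 makes the difference smaller by construction, whatever its source. The median was 0.08 without CRS 1, 0.04 without Ctrl 1, 0.0017 with the striatal covariate, and turned to -0.05 without CRS 1 and Ctrl 1 together. Of 15 astrocyte markers, which bear on Slc6a11, 2 were higher and 13 lower, with a median of -0.14 (-0.08 without CRS 2 and -0.09 without CRS 3). None of the 15 passed the test (2 at an unadjusted p under 0.05, edgeR). The gap junction gene Gja1 was at -0.25 ± 0.06, Ntsr2 at -0.25 ± 0.09 and Fgfr3 at 0.22 ± 0.10. The 15 summed to between 6315 and 7197 CPM in CRS and between 6729 and 7336 CPM in Ctrl, and their mean level was at -0.03 in CRS 1, where Slc6a11 was at 0.16. Of the 12 oligodendrocyte, 11 choroid plexus and 11 meningeal markers, 0, 0 and 1 were higher in CRS, with medians of -0.38, -0.43 and -0.57, and none passed the test (2, 0 and 4 at an unadjusted p under 0.05, edgeR). The choroid plexus median had no stable direction: it was 0.10 without CRS 1, -3.93 without CRS 2, 0.03 without CRS 3, 0.38 without Ctrl 2, -0.94 without Ctrl 3 and -1.80 with limma-voom. The oligodendrocyte median was -0.13 without Ctrl 1 and -0.03 without CRS 1 and Ctrl 1, and the meningeal median was -0.90 without CRS 2. The 3 with the smallest p were Fa2h, Mobp and Mal for oligodendrocytes, Foxj1, Ccdc153 and Tmem212 for choroid plexus and ependyma, and Slc6a20a, Col3a1 and Col1a1 for meninges.

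Genes around the 7 in the GABA pathway showed small differences. Of 14 tested genes for GABA uptake, breakdown and precursor supply, 7 were higher and 7 lower in CRS, a median of -0.01 (log2 fold change; -0.03 to 0.03 with 1 library left out), and none passed the test (0 at an unadjusted p under 0.05, edgeR). Aldh5a1, the gene of succinic semialdehyde dehydrogenase, which acts after GABA transaminase, was at 102, 97.3 and 97.8 CPM in CRS 1 to 3, against 118, 104 and 105 CPM in Ctrl 1 to 3, and the groups did not overlap (-0.14 ± 0.07). The glutamine transporter gene Slc38a2 was at 0.11 ± 0.08. Slc6a12, a betaine and GABA transporter gene, was at 0 in CRS 2 and was not among the tested genes.

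Partners of the GABA-B receptor divided evenly as well. Of 16 genes for auxiliary subunits, binding proteins, G proteins and effector channels, 9 were higher and 7 lower in CRS, with a median of 0.0070 (-0.04 to 0.03 with 1 library left out) and none past the test (0 at an unadjusted p under 0.05, edgeR). Kcnj3 and Kcnj6, subunits of the potassium channel that the receptor opens, were at 0.20 ± 0.11 and 0.23 ± 0.13. Gnai2, an inhibitory G protein gene, was at -0.11 ± 0.06. Of 17 genes for GABA-A receptor subunits, the inhibitory postsynapse and chloride transport, 8 were higher and 9 lower, with a median of -0.0030 (-0.05 to 0.03 with 1 library left out) and none past the test (1 at an unadjusted p under 0.05, edgeR). Gabrg3 was at -0.27 ± 0.10, Gabrb1 at 0.16 ± 0.10 and Gabra4 at -0.11 ± 0.08.

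The genes whose library pattern was closest to each member were found by the root mean square difference of log2 CPM over the 6 libraries, after each gene's mean was subtracted, among 11913 genes with a mean of at least 5 CPM. For Gad2 they were Pde1c (0.08), Gpr52 (0.08) and Chn2 (0.10), where the median over all 11913 was 0.41. For Slc32a1 they were Adcy5 (0.10), Spock3 (0.10) and Gng7 (0.10), with a median of 0.46. For Gad1 they were Rbms1, Dlx6os1 and Nova1 (0.04 each, median 0.23), for Abat Asic1, Psat1 and Zfp598 (0.03, 0.04 and 0.04, median 0.20), and for Gabbr2 Lingo1, Slitrk1 and Bcl7a (0.03, 0.06 and 0.06, median 0.23). Gpr52 was at 26.1, 42.7 and 46.7 CPM in CRS 1 to 3, against 73.1, 48.3 and 41.5 CPM in Ctrl 1 to 3. Adcy5, an adenylyl cyclase gene, was at 191, 266 and 309 CPM in CRS 1 to 3, against 457, 281 and 360 CPM in Ctrl 1 to 3. Rbms1 was at 11.5, 12.2 and 13.1 CPM in CRS 1 to 3, against 16.5, 13.1 and 12.1 CPM in Ctrl 1 to 3. Asic1 was at 57.4, 62.7 and 65.5 CPM in CRS 1 to 3, against 83.5, 68.7 and 71.3 CPM in Ctrl 1 to 3. What the matched genes share with the members was not tested. Among the members, Gad2 and Slc32a1 differed by 0.12 and Gad1 and Abat by 0.08, while Gad2 and Gabbr2 differed by 0.56. Slc6a11 and Gabbr1 spanned less than 0.5 on the log2 scale and were not matched.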

How the data were processed

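The authors deposited raw counts of reads per gene symbol, 1 file per library, not normalized and not pooled. Tools listed in the submitters' processing notes, with no role stated, are HTSeq 0.13.5, STAR 2.7.7a, FastQC 0.12.1 and edgeR 3.42.4, and the build is mm39. Annotation and strand setting: not given in the sources used here. Reads without a gene (53.0 to 57.4% of reads), aligned to several places (6.97 to 8.16%) or ambiguous (0.162 to 0.194%) stayed out of library sizes.

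The analysis used edgeR 4.0.16 in R 4.3.3, with filterByExpr (minimum count 10, total 15), TMM factors (0.983 to 1.02), and the robust quasi-likelihood F test, CRS minus Ctrl, with Benjamini-Hochberg adjustment over 14739 genes and a threshold of 0.05. The biological coefficient of variation was 14.3%. Log2 levels used a prior count of 2. Alternatives covered DESeq2 1.42.0, limma 3.58.1, normalization, filters, a replicate block, left-out libraries and marker levels as covariates. The procedure was also run on simulated counts, with the outcome not reported here. Genes were drawn independently there, so shifts shared by many genes of a library were not simulated. Poisson intervals cover counting error only. P-values of the fits set the group difference against the spread between these libraries. Permutation p-values set it against all regroupings of the libraries.

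The 7 members and 11 further lists were chosen with earlier results of these data known. Named genes are the members, the 3 of each list with the smallest p, the 3 closest in pattern to a member that spans at least 0.5 on the log2 scale, and ratio partners. Some genes that this rule takes, and 1 of the 4 ratios, are not reported here.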

Additional observations from a re-analysis of the deposited data

How the results depend on the processing

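No member passed the threshold in any of 19 other fits, and Gad1, Gad2, Slc32a1 and Abat stayed below 0 in all of them. Their log2 fold changes ranged from -0.34 to -0.07 (Gad1), -0.69 to -0.31 (Gad2), -0.81 to -0.36 (Slc32a1) and -0.29 to -0.13 (Abat) with 1 library left out. Ranges that crossed 0 with 1 library left out were those of Slc6a11 (-0.12 to 0.069), Gabbr1 (-0.020 to 0.023), Gabbr2 (-0.064 to 0.24) and the log2 ratio Gabbr1 to Gabbr2 (-0.24 to 0.060). Gabbr1 also turned above 0 with RLE size factors (0.0030) and DESeq2 (0.0031), and Gabbr2 below 0 without CRS 1 and Ctrl 1 together (-0.11) and with the striatal covariate (-0.052). The cause was not tested. Among all genes the count of calls was 0, but 2 with DESeq2 (Hpca and Ndst4), 4 with the likelihood ratio test (also Greb1 and Irs4), and 0 to 1 with 1 library left out (Rn18s without Ctrl 3), genes named after their values were seen. The replicate numbers of the groups gave correlations of deviations of -0.32, 0.53 and 0.28 for numbers 1 to 3 and share only a number. With them as a replicate block, Gad2 was at -0.53, Slc32a1 at -0.61, and 0 genes were called. With 3 libraries a group, the 95% intervals allow Gad2 folds from 0.459 to 1.02.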
